A study of Mus musculus with 10 samples.

Results

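Of the cell division genes, 36 were chosen by name (Ccnd1, Ccne1, Ccne2, Cdc6, Mcm2 to Mcm6, Pcna, Rrm2, Tk1, Ccna2, Ccnb1, Ccnb2, Cdk1, Foxm1, Mki67, Top2a, Cdc20, Plk1, Aurka, Aurkb, Bub1, Bub1b, Birc5, Cdca8, Kif11, Kif20a, Kif23, Prc1, Tpx2, Nusap1, Cenpe, Cenpf and Wee1), and 35 of them were among the 19935 genes measured. Ccnb1, a mitotic cyclin, was not matched to a probe set with a single gene and has no value here. The members act at different stages, so 12 genes of G1 and S phase, 22 measured genes of G2 and mitosis, and Wee1 were described apart. Levels are log2 of the deposited array intensity, and for a gene with several probe sets the one with the highest mean was used.

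Livers of 12-week-old mice were compared, 5 of WT mice and 5 of NML-KO mice, with 1 whole-transcript array of total RNA per liver. NML-KO mice lack nucleomethylin, the product of Rrp8, a factor of the nucleolus known for keeping ribosomal DNA repeats silent. Neither the allele nor the strain, sex or litter of the animals is stated in the labels, and p-values measure the spread between these 10 livers. The whole tissue was measured, so fewer cells of a type and less RNA per cell cannot be told apart. Array medians lay between 62.5 and 66.7 in intensity and precision is limited by having 10 arrays. Rrp8, the targeted gene, was lower in all 5 NML-KO livers than in any WT liver (6.65 to 7.19 against 7.65 to 7.90; adjusted p = 0.109 by limma). Whether its probes lie in the deleted part is not known here. All 8 measured hepatocyte markers lay above 11.4 in every liver, and the labels name the tissue as liver.

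The livers fell apart by the clock output gene Dbp. WT 1, WT 2 and NML-KO 1 to 3 had log2 Dbp values between 9.68 and 10.2 and are called Dbp-high, and WT 3 to 5, NML-KO 4 and NML-KO 5 had values between 6.20 and 6.60 and are called Dbp-low. These sets were defined from the arrays at a log2 value of 8 and are not groups of the study. The labels give no dissection time, so what separates the sets is not known. The sets differed in far more of the clock than Dbp. Of 15 measured clock genes, Dbp among them, 14 were called between the sets by limma, with genotype as a term. Of these, 10 were higher and 4 lower in Dbp-high livers (93.3% called, against 12.9% of all genes). This count is a description, as a clock gene defined the sets.

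In adult liver most hepatocytes rest outside the cell cycle and re-enter it after tissue loss. On entry, D and E cyclins activate kinases that release E2F factors, and E2F drives genes of DNA replication. Later FOXM1 and B-MYB act with the MuvB complex on promoters that carry a CHR element, and so raise the genes of G2 and mitosis together. In resting cells the DREAM complex, which contains p130, holds many of these promoters silent. WEE1 is a kinase that phosphorylates CDK1 and so delays mitosis, and in mouse liver it is a known target of the circadian clock.

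Promoters were listed for 27 of the 36 genes, from 250 bases before to 50 after the start, in RefSeq sequence of GRCm38.p6. The CHR letters TTTGAA, on either strand, were found in 13 of 18 G2 and mitosis promoters and in 1 of 9 G1 and S phase promoters (Mcm2), against 20.2% of the 27025 genes listed. CCAAT, on either strand, was found in 16 of the 18 and 6 of the 9, against 41.1% of genes listed. One of the E2F letters TTTGGCGC, TTTCCCGC and TTTCGCGC was found on either strand in 4 of 9 G1 and S phase promoters (Cdc6, Mcm3, Mcm5 and Mcm6) and in Cdk1 alone of the 18, against 2.12% of genes listed. The ends of these motifs can share bases, and a match is not a measured binding site. The 150 bases before the start are shown for 5 G2 and mitosis genes, chosen because TTTGAA falls within this stretch. In Plk1, Kif23, Ccnb2 and Bub1b it lies elsewhere in the longer window, and these are not shown. Aurka, Cdca8, Prc1 and Cenpf also held TTTGAA in the longer window. Where it lies in them was not read out, and they are not shown either. Capitals mark TTTGAA and CCAAT or their reverse complements.
Mki67 (chr7:135716380-135716529, minus strand): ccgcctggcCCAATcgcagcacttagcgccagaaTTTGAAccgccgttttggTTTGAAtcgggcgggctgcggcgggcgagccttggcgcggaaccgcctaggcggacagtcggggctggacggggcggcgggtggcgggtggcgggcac
Top2a (chr11:99024190-99024339, minus strand): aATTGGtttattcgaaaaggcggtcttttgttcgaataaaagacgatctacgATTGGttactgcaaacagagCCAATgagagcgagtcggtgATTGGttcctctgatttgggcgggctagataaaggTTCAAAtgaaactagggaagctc
Cdk1 (chr10:69352913-69353062, minus strand): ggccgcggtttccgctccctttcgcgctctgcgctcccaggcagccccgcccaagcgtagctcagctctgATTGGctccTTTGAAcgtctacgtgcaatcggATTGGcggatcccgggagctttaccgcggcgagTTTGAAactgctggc
Cdc20 (chr4:118437344-118437493, minus strand): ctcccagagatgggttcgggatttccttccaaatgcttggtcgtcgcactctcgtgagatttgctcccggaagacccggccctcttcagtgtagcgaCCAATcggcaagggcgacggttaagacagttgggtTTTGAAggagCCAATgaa
Kif11 (chr19:37376232-37376381, plus strand): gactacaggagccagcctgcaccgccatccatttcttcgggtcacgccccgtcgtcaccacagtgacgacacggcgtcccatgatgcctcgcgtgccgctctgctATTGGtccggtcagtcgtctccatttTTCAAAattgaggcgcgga
The CHR letters began 116, 23, 71, 18 and 19 bases before the start in Mki67, Top2a, Cdk1, Cdc20 and Kif11, in that order, taking the farther of the 2 matches in Mki67 and Cdk1.

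Across genotypes, no cell division gene passed an adjusted p of 0.05. By limma with Benjamini-Hochberg adjustment, 0 of 35 members passed in NML-KO against WT, and so did 0 of 19935 genes (0%). At an unadjusted p below 0.05 there was 1 member, Cdc6, against 2.7% of all genes (1.05% higher and 1.66% lower in NML-KO). NML-KO and WT values did not separate fully for any of the 35 members, against 0.406% of all genes. Differences were above 0 for 24 of 35 members, with a median of 0.046 on the log2 scale, against 46.6% of all genes and a median of -0.0065.

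Among G1 and S phase genes, 9 of 12 had a difference above 0, with a median of 0.069. Cdc6 encodes a loader of the replicative helicase. Its log2 values were 5.01, 5.13, 5.16, 5.11 and 4.96 in WT 1 to 5 and 5.36, 5.18, 5.23, 5.07 and 5.32 in NML-KO 1 to 5. All NML-KO livers but NML-KO 4 lay above every WT liver. The difference was 0.16 (SE 0.067, n = 5 and 5), or 1.12-fold, with an unadjusted p of 0.0381 and an adjusted p of 0.999 by limma; with the Dbp set as a term it was 0.15 with an unadjusted p of 0.0527, against 4.36% of all genes below 0.05 in that fit. Ccne2, an E-type cyclin, had 5.37, 5.53, 4.97, 5.17 and 4.99 in WT livers and 5.88, 5.09, 5.48, 5.31 and 5.30 in NML-KO livers. Its groups overlapped and its difference was 0.20 (SE 0.16; adjusted p = 0.999 by limma). The helicase subunits Mcm2 to Mcm6 differed by -0.062 (Mcm4) to 0.075 (Mcm6). Pcna, the replication clamp, differed by 0.046 (SE 0.13), and its other probe set gave 0.043.

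Among G2 and mitosis genes, 14 of 22 had a difference above 0, with a median of 0.040. The 2 smallest p-values belonged to Foxm1 and Plk1. Foxm1, a transcription factor of the mitotic programme, had 5.54, 5.23, 5.31, 5.34 and 5.40 in WT 1 to 5 and 5.55, 5.53, 5.50, 5.69 and 5.32 in NML-KO 1 to 5. Its difference was 0.15 (SE 0.079, unadjusted p = 0.0799, adjusted p = 0.999 by limma). Plk1, a kinase of mitotic entry and spindle assembly, had 5.12, 4.92, 5.36, 5.34 and 5.37 in WT livers and 5.36, 5.37, 5.33, 5.92 and 5.24 in NML-KO livers. A single liver, NML-KO 4, stood above the rest, and the difference of 0.22 (SE 0.14, adjusted p = 0.999 by limma) was 0.10 without it. With the Dbp set as a term it was 0.28 with an unadjusted p of 0.0328. The 95% intervals of the genotype difference, from limma, all lay within 1.5-fold for these 22 genes, and the widest bounds were -0.43 for Mki67 and 0.53 for Plk1. For 9 of the 12 G1 and S phase genes the interval also lay within 1.5-fold. The exceptions included Ccnd1, with a bound of 0.84. The Wee1 interval, from -0.88 to 1.52, was the widest of the 35.

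**Figure D1:**
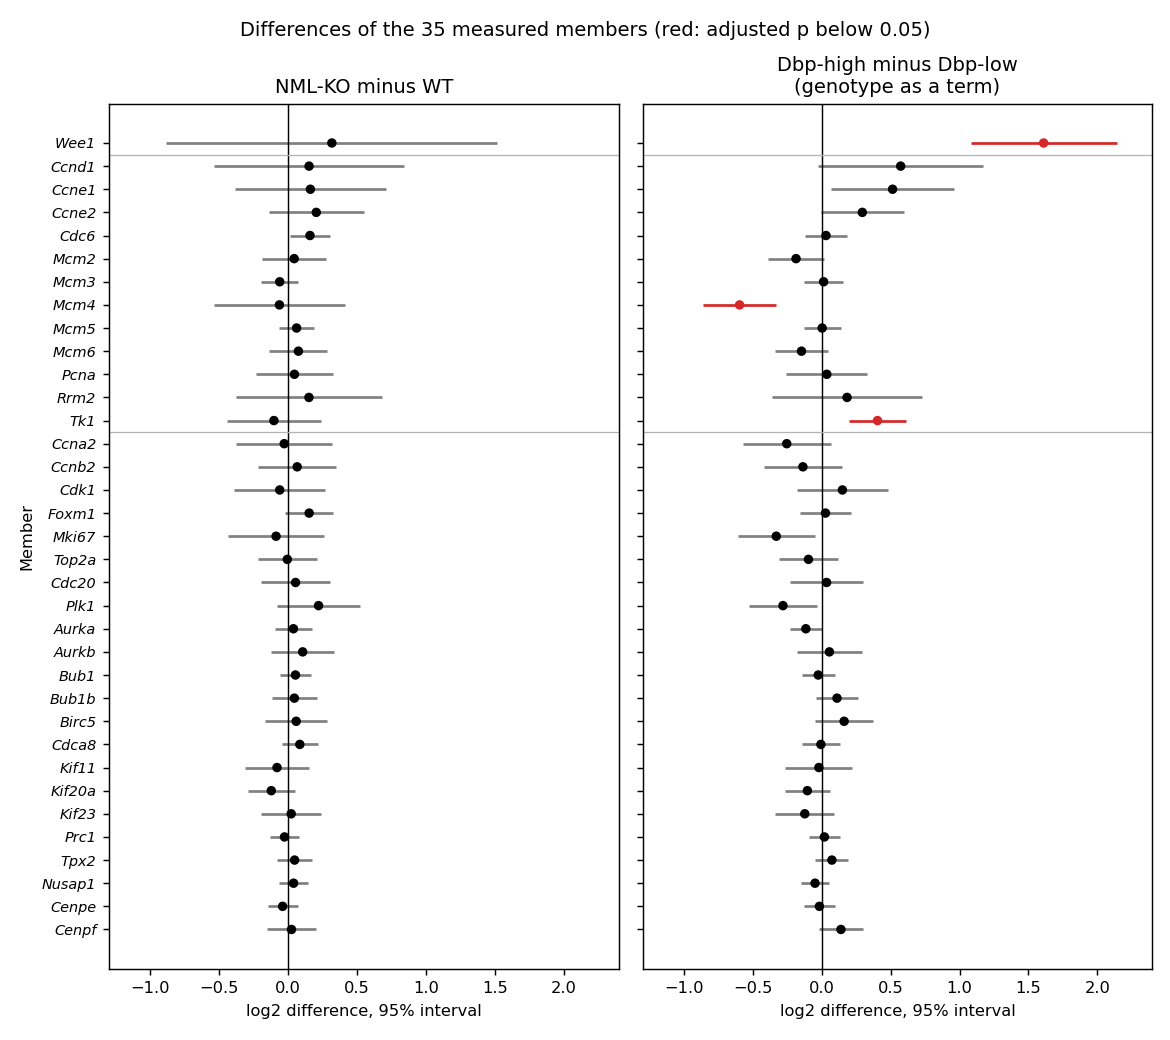
Differences of the 35 measured members on the log2 scale (points) with 95% intervals from limma (lines), for NML-KO minus WT and for Dbp-high minus Dbp-low livers with genotype as a term, 5 livers in each group. Members run from Wee1 through the G1 and S phase genes to the G2 and mitosis genes; red marks the 3 members with an adjusted p below 0.05, all in the Dbp comparison.

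Between the Dbp sets, 3 of 35 members (8.57%) passed with genotype as a term, against 12.9% of all genes, so the share of members called was not above the background. Wee1 and, by 1 of its 2 probe sets, the thymidine kinase gene Tk1 were higher in Dbp-high livers, and the helicase gene Mcm4 was lower. Over all genes, 4.92% were called higher and 7.99% lower. The sets did not overlap for the same 3 members, against 12.2% of all genes. The median difference of the 12 G1 and S phase genes was 0.034, with 9 above 0, against 0.024 and 57.5% of all genes. Without NML-KO 4 the median of these 12 was 0.0053, with 6 above 0.

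A split made on the clock output gene Dbp is no independent test of a clock target such as Wee1. Wee1 had the widest difference. Its log2 values in Dbp-high livers were 8.77 in WT 1, 8.02 in WT 2 and 9.06, 8.06 and 8.54 in NML-KO 1 to 3. In Dbp-low livers they were 6.61, 7.44 and 6.80 in WT 3 to 5 and 6.61 and 6.95 in NML-KO 4 and NML-KO 5. Every Dbp-high liver lay above every Dbp-low liver, in both genotypes. The means were 8.49 ± 0.45 (SD, n = 5) and 6.88 ± 0.34 (SD, n = 5), and the difference of 1.61 (SE 0.24), or 3.05-fold, had an adjusted p of 0.00217 by limma. It was 1.45 within WT livers and 1.77 within NML-KO livers, with adjusted p of 0.0587 and 0.0667 by limma on 5 arrays each. The genotype difference of 0.32 (SE 0.54) became -0.0042 with the Dbp set as a term. Within the sets it was 0.16 in Dbp-high and -0.17 in Dbp-low livers, and the genotype by set interaction was 0.33 (adjusted p = 0.938 by limma).

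Tk1 encodes thymidine kinase 1, which makes thymidine monophosphate for DNA synthesis. Its values were 8.46, 8.56, 8.04, 8.40 and 8.08 in WT 1, WT 2 and NML-KO 1 to 3, against 7.88, 7.97, 8.01, 7.83 and 8.02 in WT 3 to 5, NML-KO 4 and NML-KO 5. The sets did not overlap, although NML-KO 1 and NML-KO 5 were close. The difference was 0.40 (SE 0.094), or 1.32-fold, with an adjusted p of 0.0202 by limma. It was 0.56 within WT livers (adjusted p = 0.0209 by limma) and 0.25 within NML-KO livers (adjusted p = 0.476 by limma), and the interaction did not pass (adjusted p = 0.794 by limma). A second Tk1 probe set overlapped between the sets (7.21 to 7.95 against 7.25 to 7.64) and gave 0.21 (SE 0.13) with an adjusted p of 0.345, so the call rests on 1 of the 2 probe sets. It was also lost without WT 1 (adjusted p = 0.0573 by limma) and without WT 2 (adjusted p = 0.0546), where the differences were 0.39 and 0.35. Which locus each of the 2 probe sets reads is not known here.

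Mcm4 encodes a subunit of the replicative helicase. Its values were 5.84, 5.62, 5.89, 5.34 and 5.99 in the Dbp-high livers WT 1, WT 2 and NML-KO 1 to 3, against 6.22, 6.41, 6.21, 6.38 and 6.38 in WT 3 to 5, NML-KO 4 and NML-KO 5. All Dbp-high livers lay below all Dbp-low livers. The difference of -0.60 (SE 0.12), or 1.51-fold, had an adjusted p of 0.01 by limma, and was -0.55 within WT and -0.64 within NML-KO livers. The other helicase subunits did not pass, with -0.19 (SE 0.091) for Mcm2, -0.15 for Mcm6, 0.014 for Mcm3 and 0.0030 for Mcm5.

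The G1 cyclins did not pass between the sets. Ccnd1, the D cyclin of G1 entry, had 8.69, 9.01, 9.47, 7.96 and 8.48 in WT 1, WT 2 and NML-KO 1 to 3 and 7.98, 8.16, 7.94, 8.66 and 7.97 in the Dbp-low livers in the same order as before. NML-KO 2 lay at the Dbp-low level, and the sets overlapped. The difference of 0.57 (SE 0.27) did not pass (adjusted p = 0.206 by limma). It was 0.82 within WT livers (adjusted p = 0.0252 by limma) and 0.32 within NML-KO livers (adjusted p = 0.799 by limma). Ccne1, an E cyclin, was high in WT 1 (6.77) and NML-KO 1 (6.98) and lay between 5.74 and 6.19 in the other 8 livers. Its difference was 0.51 (SE 0.20, adjusted p = 0.131 by limma). For Ccne2 it was 0.29 (SE 0.13, adjusted p = 0.192 by limma), and 0.39 without NML-KO 2, where it passed (adjusted p = 0.0229). Rrm2, the small subunit of ribonucleotide reductase, had 6.59, 5.82, 6.31, 6.44 and 6.57 in WT 1 to 5 and 7.19, 6.27, 6.75, 5.85 and 6.42 in NML-KO 1 to 5. Its difference between the sets was 0.18 (SE 0.24), with an adjusted p of 0.675 by limma.

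**Figure D2:**
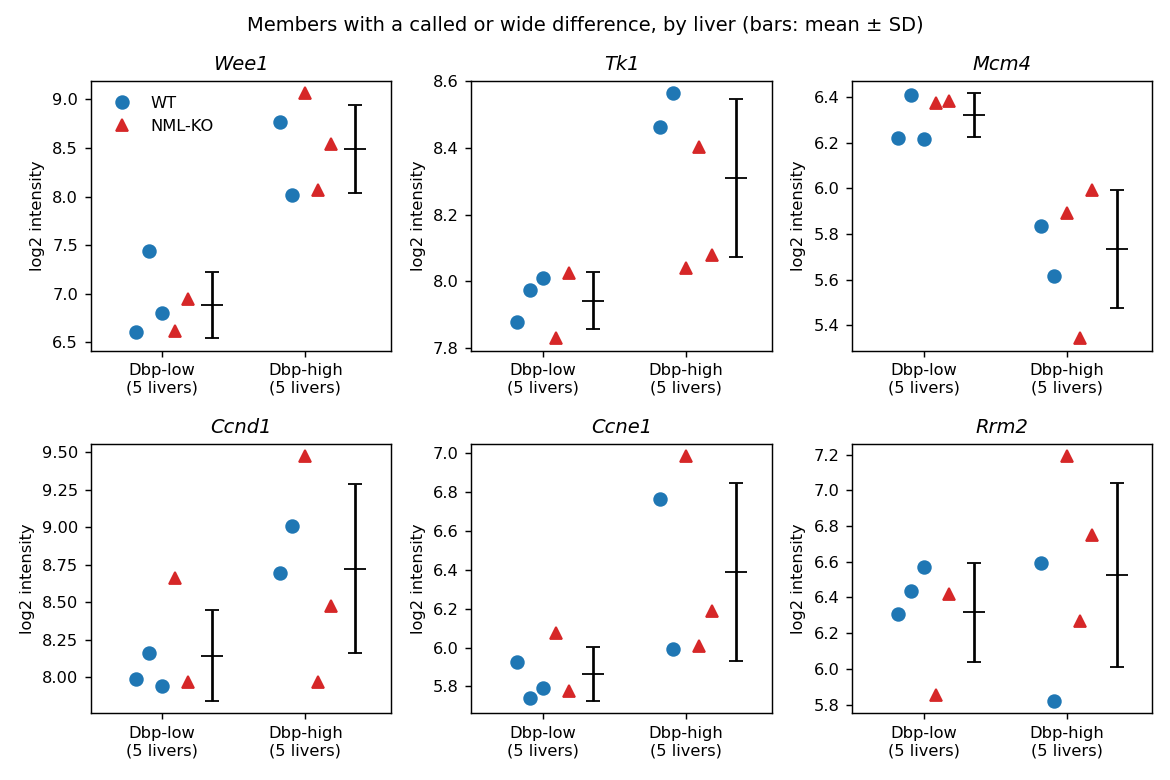
Log2 intensity of Wee1, Tk1, Mcm4, Ccnd1, Ccne1 and Rrm2 in each of the 10 livers, split into Dbp-low and Dbp-high sets, with circles for WT and triangles for NML-KO livers; bars give the mean and SD of 5 livers and the vertical axes do not start at 0. The sets are apart for Wee1, Tk1 and Mcm4 and overlap for the other genes.

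None of the 22 G2 and mitosis genes passed between the Dbp sets, and their median difference was -0.019, against 0.024 over all genes. Differences were above 0 for 9 of them, against 57.5% of all genes. The sign of this median was not stable: without NML-KO 4 it was 0.00051, with 11 of 22 above 0, and within NML-KO livers it was 0.012, with 13 of 22 above 0. The smallest p-values belonged to Mki67 and Plk1. Mki67, the gene of the Ki-67 proliferation antigen, had 5.70, 5.70, 5.60, 5.36 and 5.55 in the Dbp-high livers WT 1, WT 2 and NML-KO 1 to 3, and 5.68, 5.78, 6.11, 6.26 and 5.76 in WT 3 to 5, NML-KO 4 and NML-KO 5. The sets overlapped through WT 3. The difference was -0.33 (SE 0.13, adjusted p = 0.122 by limma), and -0.19 without NML-KO 4. For Plk1 it was -0.28 (SE 0.11, adjusted p = 0.138 by limma) and -0.16 without NML-KO 4, but -0.42 without NML-KO 5, where it passed (adjusted p = 0.00802). Intervals lay within 1.5-fold for 21 of the 22 genes, Mki67 being the exception with a bound of -0.61.

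Of 12 measured Kupffer cell and macrophage markers, 4 (Vsig4, Cd68, C1qb and C1qc) were called between the Dbp sets, all lower in Dbp-high livers, against 12.9% of all genes. Without NML-KO 4, 1 of the 12 was called, and 0 were called within WT or within NML-KO livers. Their summed intensity ran from 2374 to 4618 in Dbp-high and from 4119 to 7150.1 in Dbp-low livers, so the sets overlapped, and the list's part in the differences of cell division genes was not tested. Among the other marker lists, Alb and Cyp2e1 of 8 hepatocyte markers were called higher, 1 of 8 erythroid precursor markers was called higher and 1 of 6 cholangiocyte markers lower, and none of the B cell, T and NK cell, granulocyte, endothelial or stellate markers was called. These counts stand beside the same 12.9% of all genes. The hepatocyte count was 1 without NML-KO 4 and 0 within either genotype. Without NML-KO 4, 1 of 9 T and NK cell markers and 1 of 10 endothelial markers were called lower, against 11.1% of all genes called. Within WT livers these 2 counts were also 1 each, against 6.13% of all genes, and within NML-KO livers both were 0.

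Levels of the mitosis genes were dim and narrow in range. Of 22, 20 had a mean log2 value below the median of all gene means, 6.22, as did 6 of the 12 G1 and S phase genes. Over the 10 livers, no G2 and mitosis gene spanned more than 1 on the log2 scale; the widest was Plk1 with 0.995 (1.99-fold) and the narrowest Nusap1, a spindle protein gene, with 0.17. Among the 35 members, 5 spanned more (Wee1, Ccnd1, Rrm2, Ccne1 and Mcm4), against 9.19% of all genes. Any background still held in these intensities would shrink the differences of dim genes.

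Within this narrow range, livers differed in which genes they held highest. NML-KO 4 had the highest value of the 10 livers for 7 of 22 G2 and mitosis genes (Ccna2, Ccnb2, Foxm1, Mki67, Top2a, Plk1 and Kif23), against 9.60% of all genes, and it lay above the gene's mean for 20 of 22. It was highest for none of the 12 G1 and S phase genes. Ccna2, the cyclin of S phase and G2, stood at 6.07 there, against 5.23 to 5.81 elsewhere. Top2a, the topoisomerase that untangles chromosomes, stood at 5.51, against 5.01 to 5.30. A second, dimmer Top2a probe set was not highest in NML-KO 4, with 4.35 there and 4.55 in WT 4. For Kif23, a kinesin of cytokinesis, the value was 5.78, against 5.25 to 5.50. The median deviation from the gene means was 0.054 in this liver and 0.045 in WT 5, with the lowest, -0.10, in NML-KO 5. WT 5 lay above the gene's mean for 16 of 22. These counts were made after the values were seen and have no test.

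The same liver had the highest summed intensity of Kupffer cell and macrophage markers, with 7150.1 against 2374 to 5845 in the other 9, and was highest for 10 of the 12. Granulocyte markers summed to 582 against 439.9 to 496, with 6 of 12 highest, and T and NK cell markers to 437 against 345 to 431. B cell markers summed to 285, within the 267 to 319.8 of the other livers, and erythroid precursor markers to 1343, below their 1513 to 1842. The part of these cells in the mitosis gene levels of NML-KO 4 was not tested. Without this liver, 0 members passed between genotypes and the median difference of G2 and mitosis genes was 0.031. Wee1, Tk1 and Mcm4 remained called between the Dbp sets without it, 8.57% of members against 11.1% of all genes.

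NML-KO 1 was the highest liver for 5 of 12 G1 and S phase genes (Ccnd1, Ccne1, Ccne2, Cdc6 and Rrm2), against 9.39% of all genes, and for 2 of 22 G2 and mitosis genes. Its Wee1 value was the highest too. NML-KO 5 was highest for Mcm2, Mcm5 and Mcm6. 

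**Figure D3:**
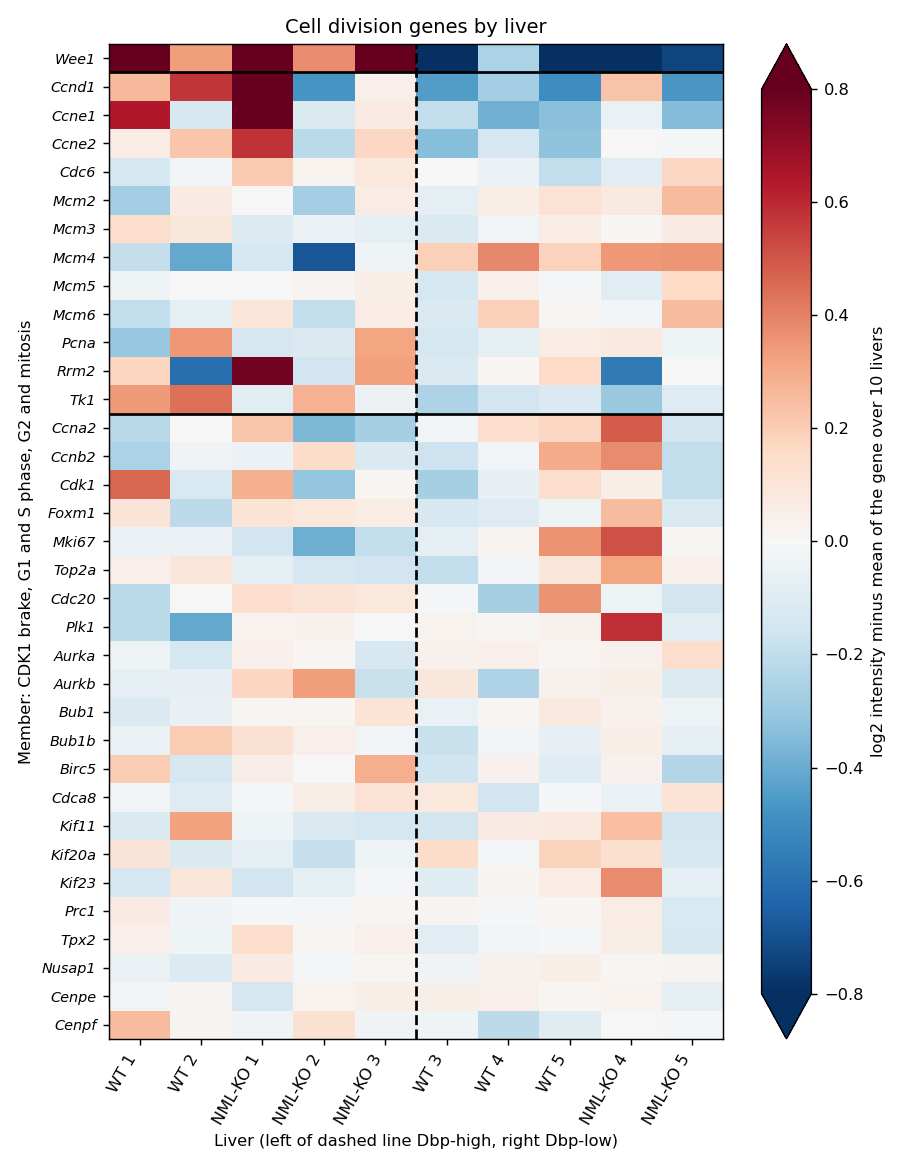
Log2 intensity of each measured member in each liver minus the gene's mean over the 10 livers (colour, limited to 0.8 either way), with Dbp-high livers left of the dashed line and Dbp-low livers right. Wee1 changes colour at the dashed line, NML-KO 4 is the reddest column for Ccna2, Ccnb2, Foxm1, Mki67, Top2a, Plk1 and Kif23, and NML-KO 1 for Ccnd1, Ccne1, Ccne2, Cdc6 and Rrm2.

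Other genes of the same pathway were read from 4 lists. No gene of these lists passed between genotypes. Between the Dbp sets, 3 of 37 other G1 and S phase genes passed, 2 higher and 1 lower. Mcm10, a replication initiation factor, lay between 7.49 and 7.79 in Dbp-high and between 6.53 and 7.0 in Dbp-low livers. The sets were well apart, with a difference of 0.85 (SE 0.094), or 1.80-fold, and an adjusted p of 0.000471 by limma. Gmnn, whose product geminin blocks relicensing of origins, was 1.27-fold higher in Dbp-high livers, and Rfc4, a clamp loader subunit, was 1.47-fold lower. Of 47 other G2 and mitosis genes, only Cks2, a CDK-binding protein gene, passed. It was 1.79-fold lower in Dbp-high livers (7.06 to 7.73 against 8.15 to 8.38).

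Of 25 cell cycle brakes, 4 passed between the Dbp sets, 1 higher and 3 lower. Rbl2, the gene of p130, was 1.32-fold higher in Dbp-high livers (8.25 to 8.55 against 7.92 to 8.07; adjusted p = 0.00247 by limma). E2f4, a repressor E2F of the DREAM complex, was 1.72-fold lower, E2f8, an atypical repressor E2F, 1.66-fold lower, and Btg1, an antiproliferative factor gene, 1.90-fold lower. The sets did not overlap for these 4 of the 25, against 12.2% of all genes. Within WT livers 1 of the 25 brakes passed (higher), and within NML-KO livers 1 (lower), against 6.13% and 1.28% of all genes. Without NML-KO 4, 5 passed, 2 higher and 3 lower, against 11.1% of all genes. Cdkn1a, the p21 gene, was matched only to a probe set with several genes and is not described. Of 11 other cyclins, kinases and early response genes, Ccnh, a subunit of the CDK-activating kinase, was 1.37-fold lower and Ccng2, an atypical cyclin gene, 1.5-fold lower. The sets did not overlap for 1 of the 11, against 12.2% of all genes. In this list, 1 gene passed without NML-KO 4, 1 within WT livers and 0 within NML-KO livers. The shares of all genes in these fits were 11.1%, 6.13% and 1.28%. The shares called, 3 of 37, 1 of 47, 4 of 25 and 2 of 11, stand beside 12.9% of all genes.

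**Figure D4:**
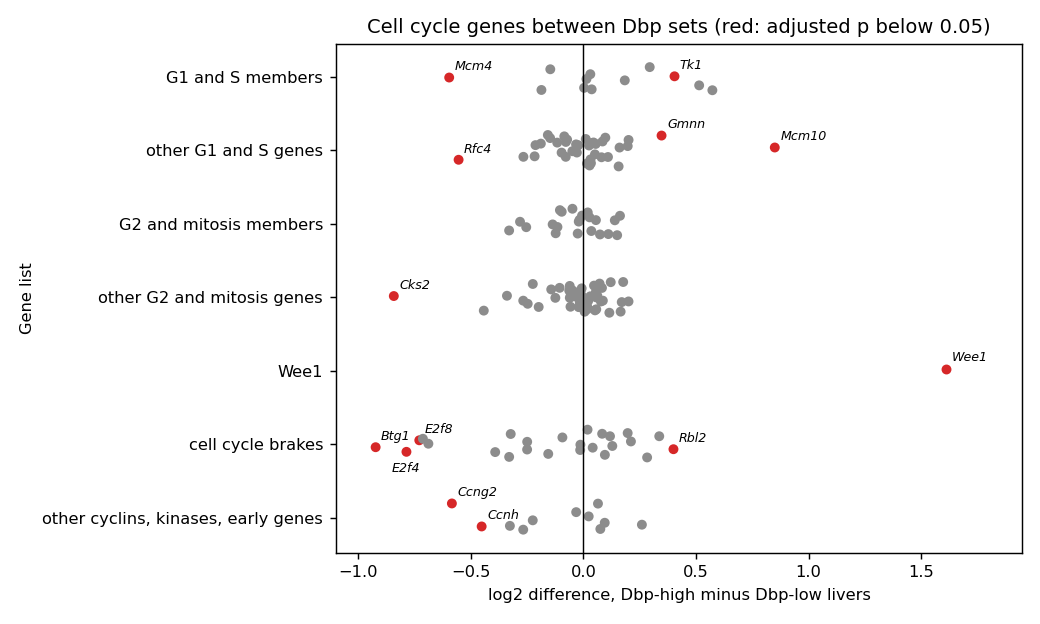
Log2 difference between Dbp-high and Dbp-low livers (horizontal axis) for each gene of the member groups and of the other cell cycle lists (rows), with red and a name for genes with an adjusted p below 0.05 by limma and grey for the others; vertical scatter within a row has no meaning. Wee1 lies farthest from 0, and the G2 and mitosis members hold no called gene.

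The genotype difference was also compared between the Dbp sets. For 0 of 35 members, and 0 of 19935 genes (0%), did the interaction of genotype and set pass an adjusted p of 0.05 by limma. At an unadjusted p below 0.05 there were 2 members, against 6.49% of all genes. Mcm3 had a genotype difference of -0.19 in Dbp-high and 0.067 in Dbp-low livers (interaction adjusted p = 0.765 by limma), and Top2a had -0.19 and 0.22 (interaction adjusted p = 0.749 by limma).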

How the data were processed

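Linear-scale intensity values of 28815 probe sets were deposited by the authors, for 10 arrays with 1 liver each. RNA was labelled with an Affymetrix whole-transcript kit, per the labels' protocols, and the submitters' processing notes name mm8. For background correction, normalization and probe summary, the sources used here name no method. Genes were named through the platform table, with symbols of 21689 probe sets updated through gene IDs of a RefSeq table (GRCm38.p6); 21780 probe sets had 1 symbol, 1605 several and 5430 none listed. The probe set with the highest mean was kept, leaving 19935 genes with no filter on dim ones.

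Log2 values were fitted for all genes with limma 3.58.1 in R 4.3.3 (lmFit and eBayes), with Benjamini-Hochberg adjustment and a threshold of 0.05, as NML-KO against WT, as Dbp-high against Dbp-low with genotype as a term, and with their interaction. The fits were tested on simulated data. Members, lists, Dbp threshold and comparisons were chosen with earlier results of these data known. All members are named; liver values are given for Wee1, called members, the 2 smallest p per stage and comparison, and others chosen after values were seen, and at most 4 genes per other list. Alternatives covered normalization, prior, array weights, dim genes, probe sets, an offset, replicate blocks, set terms and omitted livers.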

Additional observations from a re-analysis of the deposited data

Results flagged for a closer look

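Within a genotype, 6 of 70 groups of 5 livers held a member value far from its nearest neighbour for the group's range. Chance gives about 1 in 20 for a single group. The groups are different genes in the same livers and so are not independent, and the count of 6 is not a test of an excess. Ccne1 was highest in WT 1 at 6.77, with the next WT liver at 5.99. Mki67 was highest among WT livers in WT 5 at 6.11, with the next at 5.78. Among NML-KO livers, NML-KO 4 stood apart for Plk1 at 5.92 (next 5.37), for Kif11, a spindle kinesin gene, at 5.65 (next 5.37) and for Kif23 at 5.78 (next 5.40). Cenpf, a kinetochore protein gene, was highest in NML-KO 2 at 5.14, with the next at 5.02.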

How the results depend on the processing

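Between genotypes, 0 members passed under every alternative tried, and the count over all genes was 0 to 1 with 1 liver left out (1 without NML-KO 4). The median difference of G1 and S phase genes ran from 0.014 to 0.13 with 1 liver left out, and that of G2 and mitosis genes from 0.023 to 0.043. The sign of a member's difference turned for 15 of 35 members in at least 1 such fit. Between the Dbp sets, 3 members and 2573 genes passed; with 1 liver left out these were 2 to 4 members and 1625 to 2557 genes, the fewest without NML-KO 5. Within WT livers 1223 genes passed, with 3 members (Ccnd1, Mcm4 and Tk1), and within NML-KO livers 256 genes and 0 members. With the replicate block 2 genes and 0 members passed, and the medians were 0.15 for G1 and S phase and 0.034 for G2 and mitosis genes; there the sets are compared only through replicate number 3, and no call of a member between genotypes was changed by the block. The labels give the livers only a number in common. However, numbers 1 and 2 were Dbp-high and numbers 4 and 5 Dbp-low in both genotypes. Replicate number and Dbp set are thus nearly confounded, number 3 being the exception. Deviations of same-numbered livers correlated at 0.44, 0.26, 0.35 and 0.54 for numbers 1, 2, 4 and 5, and at -0.42 for number 3. Among WT livers, only WT 5 correlated most closely with the NML-KO liver of its own number. Between the sets, the G1 and S phase median of 0.034 ran from 0.0048 to 0.096 with 1 liver left out, and leaving out dim genes gave 0.11 over the 6 members left. The G2 and mitosis median of -0.019 ran from -0.049 (without NML-KO 5) to 0.00051 (without NML-KO 4) and was 0.0035 with array weights. Wee1 passed in 20 of 23 alternatives (all but the block and the fits within a genotype), Mcm4 in 20 of 22 and Tk1 in 16 of 23. Array weights added Ccnd1 and Ccne1 and lost Tk1. The interaction count over all genes was 0 to 13 with 1 liver left out (13 without NML-KO 5, 11 without WT 1) and 0 under the other alternatives, and always 0 for members. Using the other probe set for Pcna, Tk1 and Top2a was chosen after seeing the data. The cause of these changes was not tested beyond fewer samples or genes in a fit.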
